A study of Homo sapiens with 6 samples.

Results

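The D and E cyclins, the kinases they activate and 2 of the INK4 inhibitors were examined in CAL-51, a human breast carcinoma cell line, sorted on a p27-mVenus reporter. The genes were taken by name: CCND1, CCND2, CCND3, CCNE1, CCNE2, CDK2, CDK4, CDK6, CDKN2C and CDKN2D. Of these 10 genes 8 were among the 22794 genes of the tables, and all 8 passed the filter on low counts (a mean of at least 10 normalized counts over all libraries). CCND2 and CDK6 were not analysed here. Cells of both groups came from CAL-51 cultures that received the reporter plasmid, and poly(A) RNA was sequenced from 3 libraries of p27-positive cells (named p27high by the submitters) and 3 libraries of p27-negative cells (p27low). All libraries are of 1 cell line. Mock-transfected cells are not analysed here, so p27 state cannot be told apart from a response to the transfected construct.

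Progress through G1 depends on cyclin D bound to CDK4 or CDK6 and, later, on cyclin E bound to CDK2. Both complexes phosphorylate the retinoblastoma protein and so release E2F factors, which switch on the genes of S phase, the cyclin E genes among them. INK4 proteins such as p18 (CDKN2C) and p19 (CDKN2D) bind CDK4 and CDK6 and keep cyclin D off, while p27 (CDKN1B) binds the assembled cyclin complexes and blocks CDK2. CCND1 is a well-known oncogene of breast cancer, and cyclin E1 is often raised in triple-negative tumours.

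In p27-positive cells 2 of the 8 genes rose and 5 fell. CCNE1 was the main riser, at 2080 ± 42.1 against 1307 ± 102 normalized counts (SD, n = 3), 1.59-fold higher. Its paralog CCNE2 fell 2.77-fold, and CDKN2C (2.57-fold), CDK2 (2.01-fold), CDK4 (1.30-fold) and CCND3 fell with it. CCND1, the most abundant transcript of the set, was 1.09-fold higher. CDKN2D did not pass the test. The share of all 15950 tested genes that passed was large, 25.5% higher and 27.1% lower (52.6% in either direction), and the count of 7 called genes is read against that share. The groups did not overlap in 7 of the 8 genes, against 57.7% of all tested genes.

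The sequences before the start sites of CCNE1 and CDKN2C are shown because these genes moved in opposite directions and both are known targets of E2F. Each is a window of 300 bases, from 250 before to 50 after a RefSeq start (GRCh38.p14), written 5′ to 3′ on the gene's strand, which is the plus strand for both. Capitals mark matches to an E2F core (TTNNCGC with C or G at each N) or to a GC box (GGGCGG), on either strand.
CCNE1, chr19:29811741-29812040: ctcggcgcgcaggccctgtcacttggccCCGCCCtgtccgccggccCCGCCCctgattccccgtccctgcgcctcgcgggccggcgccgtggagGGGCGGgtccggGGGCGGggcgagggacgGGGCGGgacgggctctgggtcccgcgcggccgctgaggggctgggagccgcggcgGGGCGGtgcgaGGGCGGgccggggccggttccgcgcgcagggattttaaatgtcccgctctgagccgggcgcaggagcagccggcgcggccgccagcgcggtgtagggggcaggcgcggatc
CDKN2C, chr1:50968456-50968755: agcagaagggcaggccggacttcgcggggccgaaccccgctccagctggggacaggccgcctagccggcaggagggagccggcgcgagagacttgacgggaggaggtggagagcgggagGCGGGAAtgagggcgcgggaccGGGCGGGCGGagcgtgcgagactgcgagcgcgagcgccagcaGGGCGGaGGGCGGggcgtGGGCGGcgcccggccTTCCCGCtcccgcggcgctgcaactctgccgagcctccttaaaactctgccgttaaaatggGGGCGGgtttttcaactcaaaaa
The CCNE1 window held 7 GC boxes and no E2F core of these letters, which says nothing about E2F binding outside the window or to other letters. The CDKN2C window held 6 GC boxes and 2 E2F cores, from 34 bases before the start on the strand shown and from 131 bases before it on the other strand, and no base lay in both motifs. That window belongs to 1 of 3 RefSeq starts of CDKN2C, and the other 2 windows held no E2F core. It is not at the gene start of CDKN2C in the deposited data (50960745), and the window at that start held no GC box either. The CCNE1 window is at the gene start of CCNE1. By symbol, 5 of the 8 genes matched 9 windows, which include CCND3, CDK4 and CDKN2D. An E2F core was in 1 of the 9, against 13.0% of all 35116 windows of this length, and a GC box in 7 of the 9, against 45.0%. A CCAAT box (CCAAT) was in 4 of the 9 windows, against 34.6% of all. The cell cycle homology element TTTGAA and the AP-1 motif TGANTCA were in none of the 9, against 15.2% and 7.71% of all.

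The libraries held 22216934 to 28609257 reads assigned to listed genes. Nothing in the labels says that libraries of a group came from separate cultures, so that spread, on which the p-values rest, may be technical. Replicate libraries differed by more than counting noise (chi-square per degree of freedom of 5.11 to 6.16, and of 72.7 to 91.4 for pairs of opposite groups). The second principal component (14.4% of the variance) set p27-negative replicate 3 at -53.9, apart from 28.6 and 24.5 for p27-negative replicates 1 and 2. Without that library the same counts of 2 higher and 5 lower genes were called. The epithelial markers KRT8, KRT18, KRT19 and EPCAM were read at group means of 589.7 normalized counts or more. Their list summed to 144263 to 149883 normalized counts in p27-positive against 93291 to 94930.4 in p27-negative libraries. KRT19 (1.72 ± 0.03, SE), KRT8 (0.60 ± 0.02) and KRT18 (0.23 ± 0.03) rose on the log2 scale, and the last pair overlap in the genome. EPCAM fell (-0.30 ± 0.10), a call lost with library totals, upper-quartile rescaling and the FPKM table. CDH1 was listed at 0 in 4 of the 6 libraries, and KRT5 and KRT14 were not analysed here. All 4 mesenchymal markers were read, and their list summed to 2988 to 3127 against 3503 to 3884. ZEB1 fell (-0.44 ± 0.08) and VIM fell, at 2167 ± 62.7 against 2557 ± 140, the VIM call being lost under all 4 other scalings. FN1 went the other way (0.65 ± 0.45) and did not pass (limma, adjusted p = 0.23). CDH2 was below the filter on low counts and was not tested. The leukocyte markers PTPRC and CD14 summed to 19.1 to 34.2 normalized counts per library. Of the endothelial and fibroblast markers CDH5, VWF, COL1A1 and PDGFRA were read and rose (PDGFRA not with quantile normalization), and their list summed to 4596 to 4896 in p27-positive against 2846 to 2944 in p27-negative libraries. PECAM1, of the same list, was at 3.32 against 2.97, below the filter on low counts, and was not tested. The part of these markers in the results was not tested.

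**Figure D1:**
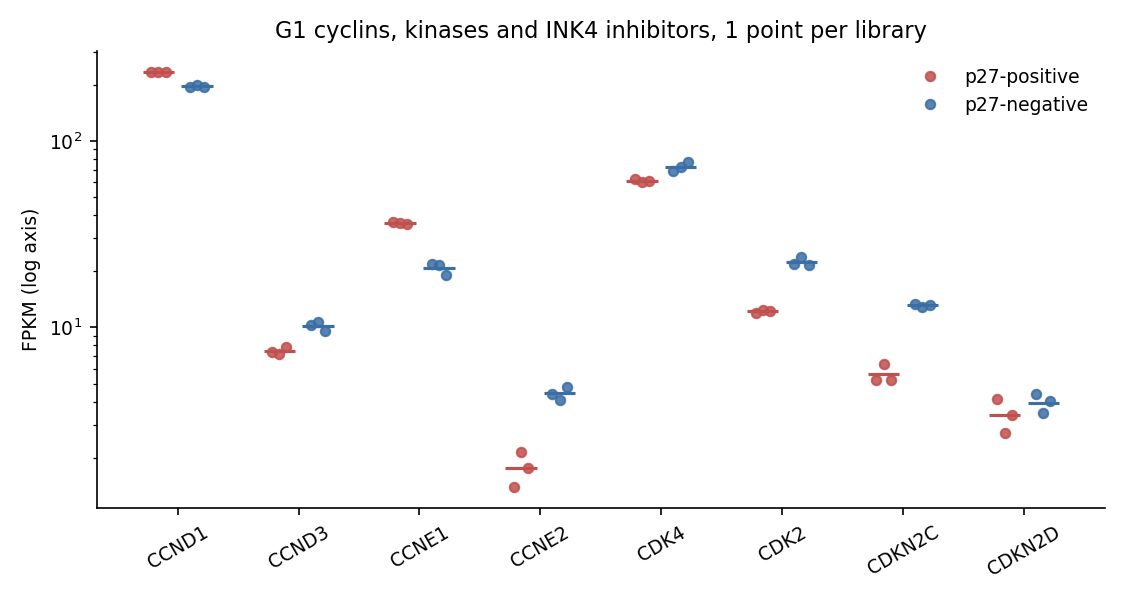
FPKM of the 8 genes (log axis) with 1 point per library and a line at the mean of each group. CCND1 lies highest in both groups, CCNE1 lies above CDK2 in p27-positive libraries and level with it in p27-negative libraries, and the points of CDKN2D overlap.

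In FPKM, which divides by transcript length and so allows levels of different genes to be set beside each other, CCND1 stood at 235 ± 1.44 in the p27-positive group and 196 ± 3.06 in the p27-negative group. Its mean FPKM was above that of 99.4% of tested genes. CDK4 followed with 61.2 ± 0.89 and 72.9 ± 4.23. Below them the order differed between groups. In p27-positive libraries CCNE1 (36.4 ± 0.46 FPKM) came next and CDK2 (12.2 ± 0.26 FPKM) after it, with no overlap between their libraries. In p27-negative libraries CDK2 (22.4 ± 1.18 FPKM) and CCNE1 (20.9 ± 1.57 FPKM) overlapped and were not separated. CCND3 (7.46 ± 0.35 FPKM) lay above CDKN2C (5.61 ± 0.68 FPKM) in p27-positive libraries, while CDKN2C (13.1 ± 0.25 FPKM) lay above CCND3 (10.2 ± 0.63 FPKM) in p27-negative libraries. CDKN2D (3.41 ± 0.70 FPKM) lay above CCNE2 (1.77 ± 0.38 FPKM) in p27-positive libraries, while CCNE2 (4.43 ± 0.36 FPKM) and CDKN2D (3.95 ± 0.46 FPKM) overlapped in p27-negative libraries.

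The D cyclin genes analysed moved apart, with the larger change in CCND3. CCND1 (ENSG00000110092, chromosome 11, 69641156 to 69654474, build hg38 as for the positions below) encodes cyclin D1, the mitogen-induced partner of CDK4. It had 26005, 25876 and 26014 normalized counts in the p27-positive libraries and 23572, 24239 and 23495 in the p27-negative libraries. Every p27-positive library was above every p27-negative library, by a small margin. The log2 fold change was 0.13 ± 0.03 (SE; limma with Benjamini-Hochberg adjustment, adjusted p = 8.4e-05), on the scale of log2(normalized count + 1). That value was above that of 56.7% of tested genes, whose median was 0.03 (0.16 with scaling to the library total). CCND1 lay between 0.24 and 0.26 under the 4 other scalings and lost its call without the trended prior (limma, adjusted p = 0.073). Fewer cells with a transcript and less of it per cell cannot be told apart in these bulk samples, here and for every gene below.

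CCND3 (ENSG00000112576, chromosome 6, 41934934 to 42050357) encodes cyclin D3, a second partner of CDK4. It had 991, 954 and 1051 normalized counts in the p27-positive libraries and 1517, 1578 and 1390.4 in the p27-negative libraries. The p27-positive libraries were all lower, without overlap. The log2 fold change was -0.58 ± 0.07 (limma, adjusted p = 1.5e-08), below that of all but 11.8% of tested genes. Within the summed FPKM of both genes, the share of CCND1 was 96.9% ± 0.14 (SD, n = 3) in the p27-positive group and 95.1% ± 0.24 in the p27-negative group. The difference was 1.86 percentage points, without overlap between the groups (exact two-sided permutation test, p = 0.1, the smallest value that 3 against 3 libraries allow).

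CDK4 (ENSG00000135446, chromosome 12, 57747727 to 57756013) encodes the kinase that D cyclins activate. It had 4507, 4311 and 4375 normalized counts in the p27-positive libraries and 5439, 5702 and 6078 in the p27-negative libraries. All p27-positive libraries were lower, and the fall was the smallest among the called decreases of the set. CDK4 changed by -0.38 ± 0.04 on the log2 scale (limma, adjusted p = 1.6e-09), and -0.21 with quantile normalization. The ratio of CCND1 and CCND3 together to CDK4, in FPKM, was 3.96 ± 0.08 in the p27-positive group and 2.84 ± 0.18 in the p27-negative group, a log2 difference of 0.48 (exact two-sided permutation test, p = 0.1).

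The 2 INK4 genes of the set differed in their statistics. CDKN2C (ENSG00000123080, chromosome 1, 50960745 to 50974634) encodes p18, an inhibitor of CDK4 and CDK6 that is itself induced by E2F. It had 369, 445 and 365 normalized counts in the p27-positive libraries and 1022, 986 and 1010.3 in the p27-negative libraries. The highest p27-positive library was at less than the lowest p27-negative one by a wide gap. The log2 fold change was -1.36 ± 0.10 (limma, adjusted p = 8.2e-15), below that of all but 1.84% of tested genes. Of the 3 windows described for this gene, the 1 with the E2F cores is printed above.

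CDKN2D (ENSG00000129355, chromosome 19, 10566460 to 10569059) encodes p19, which has the same targets. It had 145, 94.0 and 119 normalized counts in the p27-positive libraries and 167, 132 and 154 in the p27-negative libraries. The groups overlapped, since p27-positive replicate 1 lay above p27-negative replicate 2. With 98 to 188 reads per library, the log2 fold change of -0.36 ± 0.22 did not pass (limma, adjusted p = 0.18), so a difference was not detectable at this depth and spread. Quantile normalization gave -0.71, past the threshold (limma, adjusted p = 0.0083). It was -0.20 without p27-positive replicate 2. The ratio of CDKN2C and CDKN2D together to CDK4, in FPKM, was 0.147 ± 0.0052 in the p27-positive group and 0.235 ± 0.019 in the p27-negative group. On the log2 scale it fell by 0.67 (exact two-sided permutation test, p = 0.1). CDKN2C was the larger term of that sum in every library, and CDKN2D alone was not tested against CDK4. The INK4 genes CDKN2A and CDKN2B are not in that sum and went the other way. CDKN2A had 3.85 ± 0.98 FPKM in the p27-positive group and 2.21 ± 0.05 in the p27-negative group. For CDKN2B these were 0.39 ± 0.04 and 0.14 ± 0.09 FPKM.

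The E cyclins went opposite ways. CCNE1 (ENSG00000105173, chromosome 19, 29811991 to 29824312) encodes cyclin E1, the activating partner of CDK2 at the entry into S phase. It had 2128, 2052 and 2059 normalized counts in the p27-positive libraries and 1376, 1355 and 1191 in the p27-negative libraries. All p27-positive libraries were higher, and p27-negative replicate 3 was the lowest of all. CCNE1 rose by 0.67 ± 0.07 on the log2 scale (limma, adjusted p = 2.7e-11), above that of 80.9% of tested genes.

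CCNE2 (ENSG00000175305, chromosome 8, 94879770 to 94896678) encodes cyclin E2, which also binds CDK2. It had 143, 218 and 181 normalized counts in the p27-positive libraries and 493, 458 and 535 in the p27-negative libraries. No p27-positive library came near the p27-negative ones. The log2 fold change was -1.47 ± 0.15 (limma, adjusted p = 8.0e-11), the largest decrease of the 8 genes and below that of all but 1.40% of tested genes. CCNE2 overlaps INTS8 (1435 against 1658 normalized counts) and NDUFAF6 (439.6 against 471) on the opposite strand. The strand setting of the counting is not given in the sources used here, so reads of these genes could have been assigned to each other. CCND1, CDK2 and CDK4 also overlap genes of the opposite strand (LTO1, PMEL, and TSPAN31 with MARCHF9), while no listed gene overlaps the other 4.

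The share of CCNE1 in the summed FPKM of both E cyclins does not depend on how a library was scaled. It was 96.4%, 94.4% and 95.3% in the p27-positive libraries and 83.3%, 84.1% and 79.9% in the p27-negative libraries. The p27-positive libraries were all higher, by 12.9 percentage points on average (exact two-sided permutation test, p = 0.1). CCNE1 was the main E cyclin transcript in both groups.

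**Figure D2:**
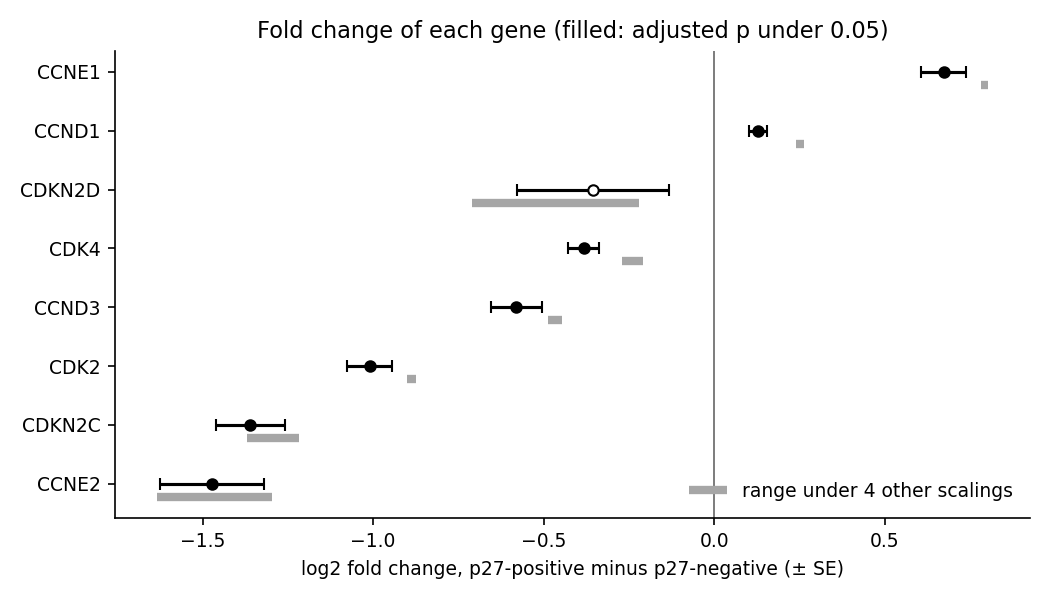
Log2 fold change of each gene (p27-positive minus p27-negative, ± SE, 3 libraries a group), with grey bars for the range under library-total, upper-quartile and quantile scaling and the FPKM table. CCNE1 (0.67) and CCND1 (0.13) lie above 0, the other 6 lie below, and no grey bar crosses 0.

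CDK2 (ENSG00000123374, chromosome 12, 55966781 to 55972789) encodes the kinase that both E cyclins activate and p27 inhibits. It had 1082, 1109 and 1106 normalized counts in the p27-positive libraries and 2169, 2352 and 2126 in the p27-negative libraries. The p27-positive libraries lay close together, all far below the p27-negative ones. On the log2 scale the fold change was -1.01 ± 0.07 (limma, adjusted p = 1.7e-16). With CCNE1 higher and CDK2 lower, the ratio of E cyclin transcripts to CDK2, in FPKM, was 3.22, 3.10 and 3.09 in the p27-positive libraries and 1.20, 1.08 and 1.11 in the p27-negative libraries. The log2 difference of 1.47 was the widest of the 3 ratios computed and its libraries did not overlap (exact two-sided permutation test, p = 0.1). In all, 5 shares and ratios were computed, and each had an adjusted p of 0.1 after Benjamini-Hochberg adjustment over the 5.

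**Figure D3:**
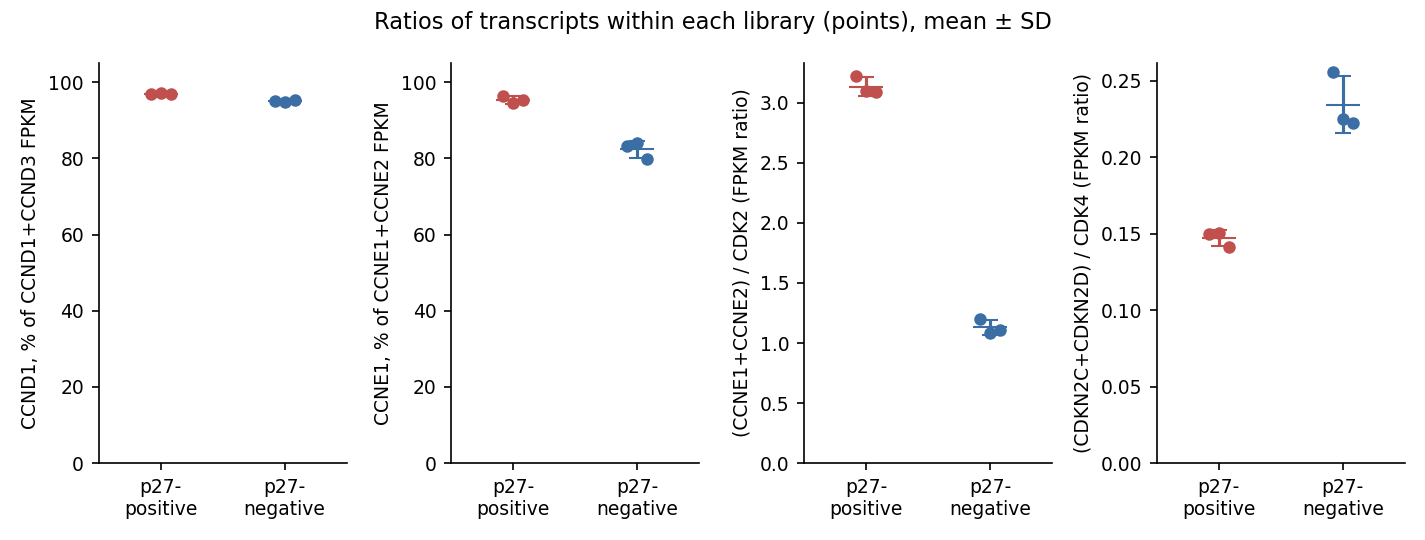
Shares and ratios of FPKM within each library (points) with the mean ± SD of 3 libraries a group. The left panels give CCND1 as a share of CCND1 and CCND3 (96.9% against 95.1%) and CCNE1 as a share of CCNE1 and CCNE2. The right panels give E cyclins over CDK2 (3.13 against 1.13) and CDKN2C with CDKN2D over CDK4 (0.147 against 0.235). No panel showed overlap between groups.

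The genes around these complexes were counted in lists, and each count is read against the 25.5% of all tested genes called higher and the 27.1% called lower. The 5 other CDK inhibitors went mostly up, with 3 higher and 1 lower. CDKN1A, which encodes p21, had 9995 ± 398 against 2692 ± 140 normalized counts (log2 fold change 1.89 ± 0.05). CDKN2B, which encodes the INK4 protein p15, rose from 14.2 ± 9.35 to 36.5 ± 3.39, a call lost with quantile normalization, and CDKN2A, which encodes p16 and p14ARF, rose from 218 ± 5.49 to 347 ± 86.4. CDKN1B, the endogenous gene of the sorted protein, fell (-0.35 ± 0.07), a call lost in the FPKM table, where 2 of the inhibitors rose and 0 fell, and its counts may hold reads of the plasmid. CDKN1C, which encodes p57, was at 0.83 ± 0.52 and did not pass (limma, adjusted p = 0.18).

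All 6 genes of CDK activation and inhibitory phosphorylation fell, with a median log2 fold change of -0.43 against 0.03 for all tested genes. CDC25A, the phosphatase that activates CDK2, fell by 1.16 on the log2 scale and WEE1, the kinase that opposes it, by 1.02. The subunits of the CDK-activating kinase changed less, MNAT1 by -0.59 ± 0.10, CCNH by -0.26 ± 0.10 and CDK7 by -0.22 ± 0.09. With scaling to the library total 3 of the 6 were lower, and the calls of CDK7, CCNH and CDC37 were lost.

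Of 14 genes of cyclin turnover 3 rose and 8 fell (4 rose and 5 fell with scaling to the library total). FBXW7, the receptor that marks cyclin E for destruction, rose by 0.32 ± 0.08, and GSK3B, the kinase that phosphorylates cyclin D1 for export and decay, by 0.32 ± 0.05. FBXO31, a receptor reported to mark cyclin D1, rose by 0.46 ± 0.09. SKP2 and its cofactor CKS1B, which mark p27 for destruction, fell by 0.59 and 1.12 on the log2 scale. CUL3 (-0.53 ± 0.06) and CUL1 (-0.47 ± 0.06) fell as well. AMBRA1, the main receptor for D cyclins, did not pass (0.12 ± 0.07).

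Of 13 pocket proteins and E2F genes 11 fell and 1 rose, with a median of -0.73. E2F1 (-1.11 ± 0.06), E2F2 (-1.57 ± 0.10) and E2F8 (-1.48 ± 0.11) fell, as did the pocket protein gene RBL1 (-1.34 ± 0.07). RB1 fell by 0.28 on the log2 scale, a call lost with quantile normalization. TFDP2, a dimer partner of E2F, rose (0.42 ± 0.06), and RBL2 (0.01 ± 0.08) did not pass. All 20 listed S phase genes driven by E2F fell, with a median of -1.26. The log2 fold changes of CCNE2 and CDKN2C lay within the range of these genes, -1.98 (CCNA2) to -0.86 (PCNA), as did that of CDK2, while CCNE1 lay outside it.

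Of 9 factors that act at the D cyclin genes 3 rose and 3 fell, against 25.5% and 27.1% of all tested genes. JUN (0.46 ± 0.07) and the FOXO genes FOXO4 (2.14 ± 0.15) and FOXO3 (0.41 ± 0.10) rose. FOSL1 (-1.41 ± 0.13), MYC (-0.60 ± 0.11) and CTNNB1 (-0.24 ± 0.03) fell. FOS (0.18 ± 0.15), TCF7L2 (-0.07 ± 0.13) and FOXO1 (-0.04 ± 0.11) did not pass. CTNNB1 lost its call with quantile normalization.

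**Figure D4:**
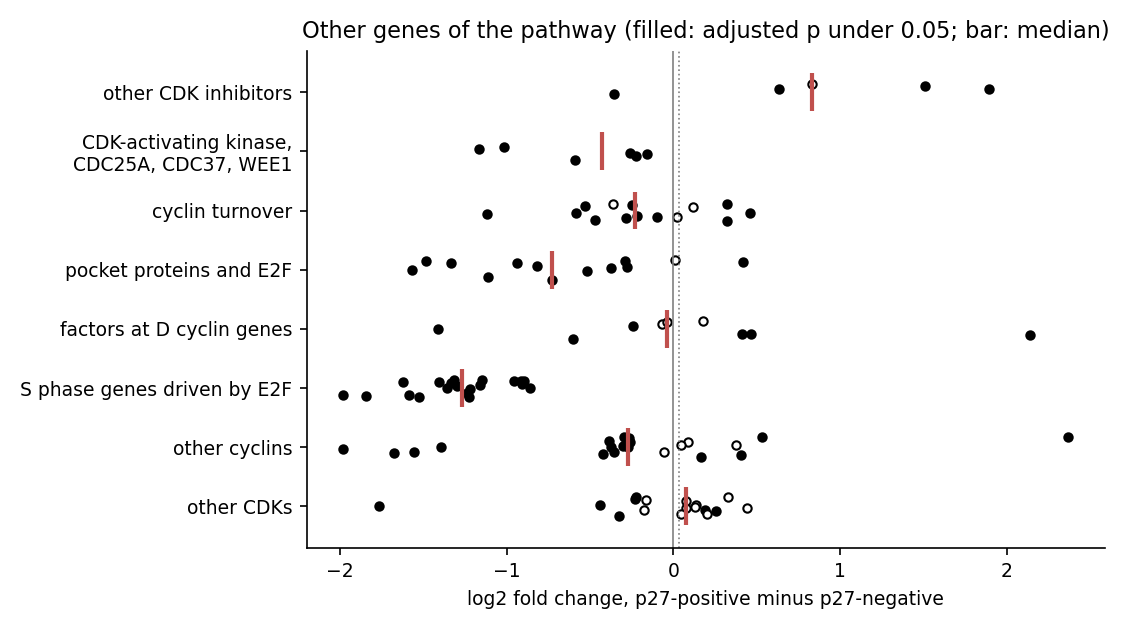
Log2 fold changes of the tested genes of 8 lists (points; filled where the adjusted p was under 0.05), with the median of each list as a red bar and that of all tested genes (0.03) as a dotted line. All S phase genes lie below 0, and 4 of the 5 other CDK inhibitors lie above it.

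For each called gene, the profile over the 6 libraries was compared with those of 11790 genes by the root-mean-square difference of centred log2 values. CCNE1 was closest to TMEM59 (0.030) and MAGED2 (0.032). CCNE2 was closest to the kinetochore gene SPC24 (0.066), and its second neighbour GADD45B (0.121) was the farthest of the 14 named by this rule. CDKN2C was closest to the centromere gene CENPI (0.036) and the kinesin gene KIF18B (0.043). CDK2 was closest to FIGNL1 (0.038) and the replicative helicase gene MCM6 (0.039). CDK4 was closest to CCNQ (0.016), CCND3 to SDC1 (0.023) and CCND1 to PRDX1 (0.014). With 2 groups, closeness rests mostly on the size of the group difference.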

How the data were processed

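Poly(A) RNA libraries were made with a stranded kit, per the labels' protocols. STAR, featureCounts, DESeq2 and build hg38 are named in the submitters' processing notes, while the sources used here do not give versions, annotation or strand setting. The first deposited table holds a signal, per the file headers the count of each gene after division by the authors' DESeq2 size factors. The second deposited table holds FPKM values, per the file headers. All values of the first table (100%) were whole multiples of 1 step per library within 1e-06, so whole reads were recovered. In p27-positive replicate 1 that step is close to 1.

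The genes and lists were chosen with earlier results of these data known. Lists and counts carry no test of their own. All 10 genes of the set, members of the lists (the 4 smallest p in each direction, or by role) and the 2 closest profiles of each called gene could be named. The roles decided some choices after values were seen.

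limma 3.58.1 in R 4.3.3 was fitted to log2(normalized count + 1) of 15950 genes with a trended prior, group as the only term, two-sided, with calls at a Benjamini-Hochberg adjusted p under 0.05. Such p-values are from limma unless named. Shares and ratios used FPKM and exact permutation of libraries. Planned sums with CCND2 or CDK6 were computed without these genes, which left 5 shares and ratios. The CDK4 share of CDK4 and CDK6 and separate shares of CCND2 and CCND3, also planned, were not computed. Alternatives were other pseudocounts, filters, scalings, log2(FPKM + 0.1) for genes at or above a mean of 0.5, no trended prior, a replicate block, edgeR 4.0.16 and DESeq2 1.42.0 on recovered reads, and leaving out each library. The scripts were tested on simulated data. Promoter windows are from RefSeq.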

Additional observations from a re-analysis of the deposited data

How the results depend on the processing

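Of 144 values of the 8 genes under 18 alternatives, 142 kept their direction and their side of the threshold. The exceptions were CCND1 without the trended prior, so that 1 gene of the set was called higher, and CDKN2D with quantile normalization, both given above, and the cause was not tested. The 40 values of shares and ratios kept their direction, but for most of them this was fixed beforehand. Since the groups did not overlap, leaving out 1 library could not reverse a difference. The mean over same-numbered pairs equals the main difference. Only the values in normalized counts, which are not divided by length, could have reversed. In these CCNE1 was higher by 19.6 percentage points of the E cyclins. Leaving out 1 library gave 2 higher and 5 lower genes of the set each time, 3496 to 3932 higher and 3989 to 4142 lower of all genes, and 15 to 16 higher and 60 to 64 lower of the 102 other listed genes tested, against 16 and 64. The FPKM table gave 2832 lower genes against 4318, with 4145 higher. Scaling to the library total gave 5343 higher and 3114 lower (63.2% higher, against 48.5%), and shifted the median over all genes by 0.13 (log2), so changes of that size, CCND1 among them, are relative to the scaling. edgeR and DESeq2 made the same calls in the 8 genes as limma. Same-numbered libraries did not deviate together (correlations of -0.00051 to 0.011), and not every library correlated best with its own number. Low correlations cannot show whether same-numbered libraries came from 1 culture, so whether the numbers pair them is not known. With the replicate block 4065 genes were higher and 4330 lower, with 2 and 5 of the set. An exact sign-flip test over 3 pairs gave p = 0.25 for each share and ratio, the smallest it allows. The lowest read totals over all libraries were those of CDKN2D (821) and CCNE2 (2012), and CCNE2 was called lower under all 18 alternatives.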

Other observations

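Of 21 other cyclin genes tested 4 rose and 13 fell (6 and 9 with scaling to the library total). CCNA2 and CCNH, among those that fell, are also counted in the S phase and CDK activation lists above. Among all tested genes 25.5% rose and 27.1% fell in the main fit. The mitotic cyclin genes CCNA2 (-1.98 ± 0.05), CCNB1 (-1.68 ± 0.04) and CCNB2 (-1.56 ± 0.06) fell with CCNF (-1.39 ± 0.06). CCNG2, a cyclin known to rise when cells leave the cycle, had 6006 ± 347 normalized counts against 1163 ± 83.6 and rose by 2.37 ± 0.06 on the log2 scale, the largest change among the listed cyclins, and the p53 target CCNG1 rose by 0.53 ± 0.04. CCNL2 (0.41 ± 0.05) and CCNY (0.17 ± 0.05) also rose.

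Of 17 other kinase genes of the CDK family 2 rose and 5 fell (6 and 3 with scaling to the library total), and 10 did not pass. CDK7, among those that fell, is also counted in the CDK activation list above. CDK1, the mitotic kinase, changed by -1.77 ± 0.07, from 4191 ± 456 to 1231 ± 113 normalized counts. Among the kinases of transcription, CDK12 (-0.32 ± 0.05) fell, while CDK9 (0.07 ± 0.08) and CDK13 (0.07 ± 0.06) did not pass. CDK16 (0.19 ± 0.04) and CDK18 (0.25 ± 0.09) rose. CDK11A and CDK11B are near-identical copies, so their values are uncertain.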
